A study of Mus musculus with 6 samples.

Results

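The Fc gamma and scavenger receptor genes measured here are 10 genes chosen by symbol from the count tables, out of 24411 features. They are the IgG Fc receptors Fcgr1, Fcgr2b, Fcgr3 and Fcgr4, their signalling chain Fcer1g, the scavenger receptors Msr1, Marco and Cd36, the mannose receptor Mrc1 and the lysosomal glycoprotein Cd68. All 10 were found in the tables, and all 10 passed the filter on low counts. The cells were PM, primary microglia shaken from mixed glial cultures that had been grown from the pooled brains of neonatal ICR mice. One group of 3 libraries came from PM given GSK-J4 (10 μM), an inhibitor of the H3K27 demethylases of the JMJD3 type, and the other group of 3 from PM given LPS (10 ng/ml) on top of the same GSK-J4. Both groups were collected at 4-h. GSK-J4 is therefore common to both, and each fold change is LPS + GSK-J4 over GSK-J4. The untreated and LPS-only PM were not analysed here. Since the cultures were pooled and the labels name no separate animals, p values measure the spread between these libraries.

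Fc gamma receptors bind the constant part of IgG and let phagocytes take up opsonized particles. The activating receptors Fcgr1, Fcgr3 and Fcgr4 signal through the common gamma chain encoded by Fcer1g, whose cytoplasmic activation motif recruits the kinase Syk, whereas Fcgr2b carries an inhibitory motif of its own and recruits the phosphatase encoded by Inpp5d. Scavenger receptors bind modified lipoproteins, bacterial surfaces, apoptotic cells and amyloid, and microglia use them for clearance in the brain.

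The libraries held 2597505 to 3472716 fragments counted on genes, and the members had between 9 and 2761 counts in each library. The ribosomal precursor Rn45s took between 22.2 and 48.1% of the gene counts, with the higher shares with LPS + GSK-J4, so fewer counts were left for the members there. Levels are given as CPM, counts relative to the library total, which was scaled by edgeR's TMM factors. A gene is said to rise or fall where edgeR's quasi-likelihood test across 10133 genes gave a p of 0.01 or less after Benjamini-Hochberg adjustment, and the study's second threshold, a log2 fold change of 1.5 or more in size, is given separately. Replicate 3 of each group was the library least like the other 2 of its group, with a chi-square per degree of freedom between counts of at least 6.44 against 2.21 and 2.48 between replicates 1 and 2.

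With LPS added in the presence of GSK-J4, 2 of the 10 genes fell, Marco and Fcgr3, and none rose. Over all genes tested, 5.46% fell and 8.42% rose by the same rule, and with 10 members a count of 2 is small. Fcer1g and Mrc1 were lower at an adjusted p between 0.01 and 0.05, which makes 4 of 10 at the looser level, where 9.91% of all genes were lower. No member reached the study's fold threshold, which 3.76% of all genes did. The log2 fold change was negative for 9 of the 10 genes, with a median of -0.28 beside -0.00064 over all genes, and it was positive for Msr1 alone, but negative for only 4 of the 10 when the libraries were scaled to their microglia markers, as described further on. For 5 genes the 3 LPS + GSK-J4 libraries lay wholly below the 3 GSK-J4 libraries, as they did for 18.4% of all genes.

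**Figure D1:**
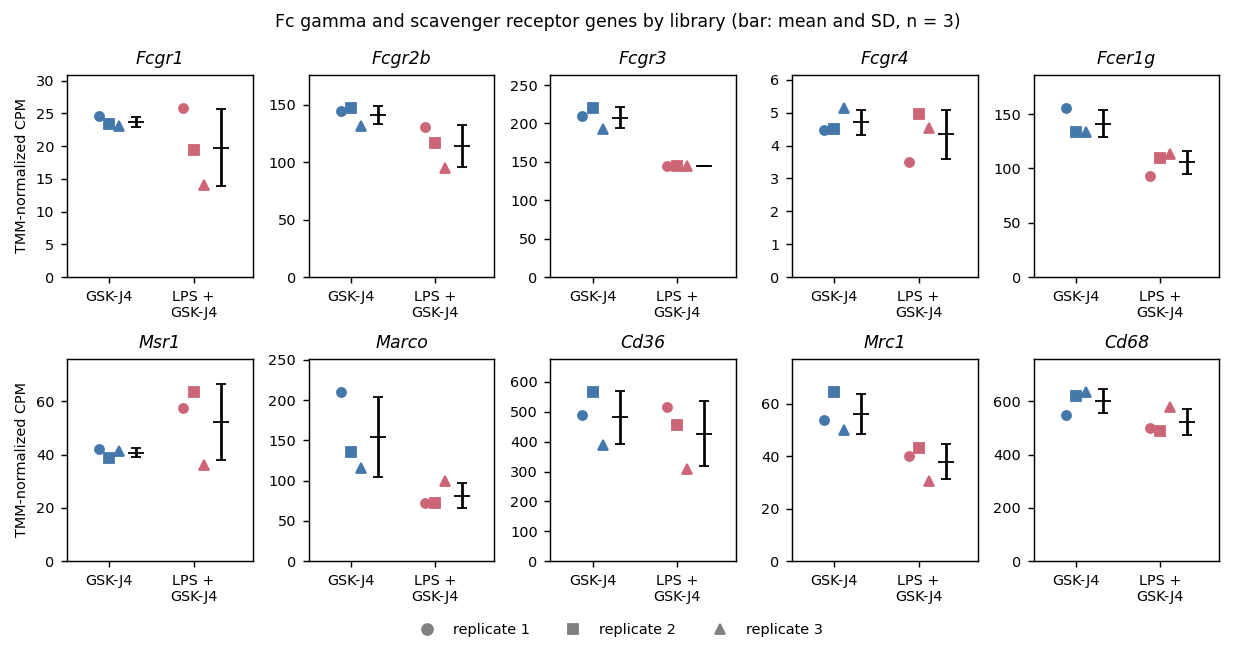
Each panel shows 1 gene, with TMM-normalized CPM on the vertical axis from 0, the 3 libraries of each group as points whose shape gives the replicate number, and the mean with SD (n = 3) as a bar. In Fcgr2b, Fcgr3, Fcer1g, Marco and Mrc1 the groups do not overlap on this TMM scale, while Msr1 shows 2 LPS + GSK-J4 libraries above and replicate 3 below the GSK-J4 libraries.

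Among the activating receptors, Fcgr3, the low-affinity IgG receptor III, was the one that fell. Fcgr3 (mm10 chr1:171051174-171064935, minus strand) was at 209.7, 219.8 and 193 CPM in GSK-J4 replicates 1, 2 and 3 and at 144, 144 and 144 CPM with LPS + GSK-J4. The LPS + GSK-J4 libraries were nearly equal to each other and all lay below the GSK-J4 libraries. The means were 208 ± 13.4 and 144 ± 0.143 CPM (SD over the 3 libraries), with a log2 fold change of -0.53 (standard error, SE, 0.11, edgeR adjusted p = 0.00289). The LPS + GSK-J4 values rest on 370, 378 and 349 counts, and counting error alone exceeds an SD of 0.143 CPM. The call was lost, at an adjusted p from 0.0103 to 0.0264, when GSK-J4 replicate 1 or 2 or LPS + GSK-J4 replicate 1 or 2 was left out, with a log2 fold change from -0.57 to -0.49 over all 6 omissions.

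Fcgr1 (chr3:96282909-96293969, minus strand) encodes the high-affinity IgG receptor and was at 24.5, 23.3 and 23.1 CPM in GSK-J4 and at 25.8, 19.5 and 14.0 CPM with LPS + GSK-J4. The GSK-J4 libraries stayed close together, whereas the LPS + GSK-J4 libraries spread from above to well below them, so the groups overlapped. The log2 fold change of -0.26 (SE 0.21, adjusted p = 0.427) was not past the spread between libraries. Fcgr4 (chr1:171018920-171029761, plus strand), the receptor for IgG2a and IgG2b, was scarce, with 19, 20 and 14 counts in GSK-J4 and 9, 13 and 11 counts with LPS + GSK-J4. Its mean was 4.70 ± 0.374 CPM and 4.34 ± 0.745 CPM, and a difference of a size like that of Fcgr3 was not detectable at this depth (log2 fold change -0.10, SE 0.33, adjusted p = 0.866).

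Fcer1g (chr1:171229572-171234365, minus strand), the gamma chain shared by the activating receptors, was at 155, 134 and 134 CPM in GSK-J4 and at 93.3, 109.9 and 114 CPM with LPS + GSK-J4. The groups did not overlap, and the gene was lower in each LPS + GSK-J4 library. Its log2 fold change was -0.42 (SE 0.13) with an edgeR adjusted p of 0.0271, above the 0.01 threshold. Without LPS + GSK-J4 replicate 3 the adjusted p was 0.00734, and with any other library left out it was 0.0324 to 0.137.

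The inhibitory receptor Fcgr2b (chr1:170958617-170976547, minus strand) was at 145, 147 and 132 CPM in GSK-J4 and at 131, 117 and 95.0 CPM with LPS + GSK-J4. Each LPS + GSK-J4 library lay below each GSK-J4 library. The log2 fold change of -0.31 (SE 0.13) had an adjusted p of 0.116 and was not called.

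Fcgr2b and Fcgr3 are close relatives. On chromosome 1 Fcgr4 lies between them, with gaps of 42372 and 21412 bases. Of the windows of 50 bases in the coding sequence, 166 of 971 in Fcgr2b (17.1%) and 166 of 752 in Fcgr3 (22.1%) were found unchanged in the other gene, and no such window was shared with Fcgr1 or Fcgr4. Fragments that lie wholly in the shared part map to both places and are not in the deposited counts, so the levels of both genes may be somewhat low. The size of this loss was not measured. The longest shared run was 129 bases in the extracellular part, and it is printed here with 30 bases on either side from the GENCODE transcripts, 5′ to 3′, because it shows where the count tables cannot tell the inhibitory from the activating receptor. Capitals mark the 5 positions at which the pair differ. The stretch covers coding bases 248 to 436 of Fcgr2b, within chr1:170966644-170968111 over coding exons 3 and 4, and coding bases 233 to 421 of Fcgr3, within chr1:171054137-171057822 over coding exons 3 and 4, both on the minus strand.
Fcgr2b: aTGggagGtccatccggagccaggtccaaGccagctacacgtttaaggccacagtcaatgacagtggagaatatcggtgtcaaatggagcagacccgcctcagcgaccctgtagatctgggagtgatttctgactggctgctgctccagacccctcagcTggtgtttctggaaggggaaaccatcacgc
Fcgr3: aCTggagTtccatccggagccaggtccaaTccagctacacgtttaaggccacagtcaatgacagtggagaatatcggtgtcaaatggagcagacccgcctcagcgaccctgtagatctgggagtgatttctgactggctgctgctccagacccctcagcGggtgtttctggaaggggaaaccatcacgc

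The balance of activating and inhibitory receptor was taken within each library, where no scaling is needed. Fcgr3 had 1.448, 1.495 and 1.464 counts for each Fcgr2b count in GSK-J4 replicates 1, 2 and 3, and 1.101, 1.235 and 1.517 with LPS + GSK-J4. The ratio was tight in GSK-J4 and ran from below to above that range with LPS + GSK-J4. The difference in mean log2 ratio was -0.21, and a 2-sided exact permutation test over the libraries gave p = 0.4, where 0.1 is the smallest value that 3 against 3 allows. Fcgr1 had 0.168 ± 0.00824 counts per Fcgr2b count in GSK-J4 and 0.170 ± 0.0245 (SD, n = 3) with LPS + GSK-J4. For Fcgr4 the ratio was 0.0335 ± 0.00471 and 0.0390 ± 0.0109. For Fcer1g it was 0.998 ± 0.0828 and 0.949 ± 0.242. Fcgr3 had 1.48 ± 0.150 and 1.38 ± 0.150 counts per Fcer1g count. Over the 5 ratios the exact permutation p ran from 0.4 to 1.0, and from 0.833 to 1.0 after Benjamini-Hochberg adjustment, and the ratios to Fcgr2b were the more variable with LPS + GSK-J4.

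**Figure D2:**
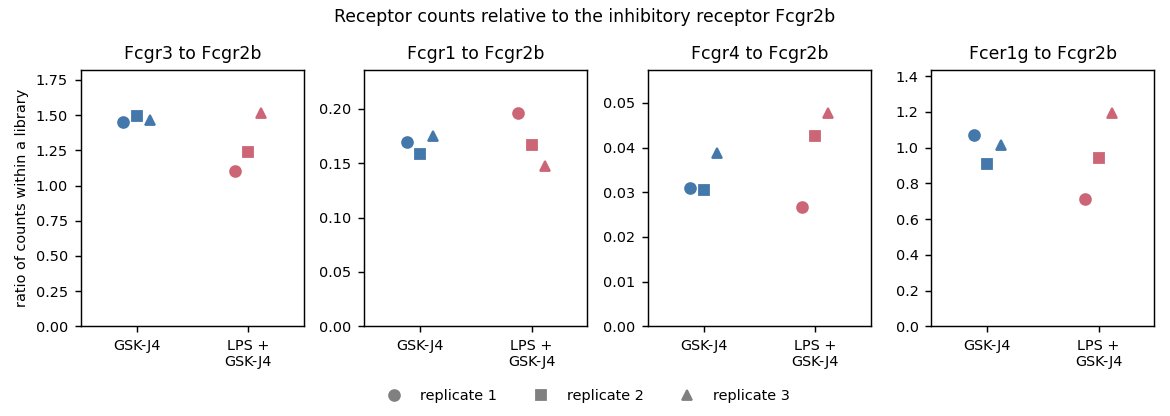
Each panel shows the ratio of the counts of 1 receptor gene, or of the Fcer1g chain, to those of Fcgr2b within a library, from 0, with point shape giving the replicate number. The ratio of Fcgr3 to Fcgr2b lies at 1.448 to 1.495 in GSK-J4 and at 1.101 to 1.517 with LPS + GSK-J4, and the groups overlap in every panel.

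Of the scavenger receptors, Marco, a collagen-domain receptor for bacteria and particles, had the largest difference of all 10 members. Marco (chr1:120474538-120505024, minus strand) was at 209.5, 136 and 115 CPM in GSK-J4 and at 72.2, 72.1 and 99.9 CPM with LPS + GSK-J4. GSK-J4 replicate 1 was high, and replicate 3 of the 2 groups came nearest to each other, at 115 and 99.9 CPM. Marco fell from 154 ± 49.6 to 81.4 ± 16.0 CPM (SD over the 3 libraries), with a log2 fold change of -0.92 (SE 0.20, edgeR adjusted p = 0.00277), or 0.528 times the GSK-J4 level. Only 3.69% of all genes tested had a lower log2 fold change. Without GSK-J4 replicate 1 the log2 fold change was -0.64 and the adjusted p 0.0165, and the call was also lost without LPS + GSK-J4 replicate 1, 2 or 3 (adjusted p = 0.0140, 0.0290 and 0.0126).

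Msr1 (chr8:39581685-39642673, minus strand), the class A scavenger receptor, went the other way. It was at 42.0, 38.8 and 41.4 CPM in GSK-J4 and at 57.4, 63.3 and 35.9 CPM with LPS + GSK-J4. Replicates 1 and 2 with LPS were clearly above the GSK-J4 libraries and replicate 3 was below them. The log2 fold change of 0.36 (SE 0.18, adjusted p = 0.178) was not called. Without LPS + GSK-J4 replicate 3 it was 0.57 (SE 0.14, adjusted p = 0.00453). With any other library left out it was 0.20 to 0.38 and not called (adjusted p from 0.243 to 0.565).

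Cd36 (chr5:17781690-17888801, minus strand), a class B scavenger receptor that also carries fatty acids, was abundant. It was at 489, 565 and 390.1 CPM in GSK-J4 and at 517, 456 and 307 CPM with LPS + GSK-J4. The groups overlapped and replicate 3 was the lowest library of each. The log2 fold change of -0.18 (SE 0.17, adjusted p = 0.506) was within the spread between libraries, and without LPS + GSK-J4 replicate 3 its sign turned, to 0.012.

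Mrc1 (chr2:14229392-14332057, plus strand) encodes the mannose receptor, which marks macrophages at the borders of the brain and alternatively activated cells. It was at 54.0, 64.4 and 49.9 CPM in GSK-J4 and at 40.2, 43.1 and 30.6 CPM with LPS + GSK-J4. All 3 LPS + GSK-J4 libraries were lower, with a log2 fold change of -0.57 (SE 0.17) and an edgeR adjusted p of 0.0213, above the 0.01 threshold. Without GSK-J4 replicate 2 the log2 fold change was -0.46 (adjusted p = 0.130). With any other library left out the adjusted p was 0.0218 to 0.0451. Among other genes of border macrophages, F13a1 fell from 242 ± 30.7 to 127 ± 9.93 CPM (adjusted p = 5.91e-05) and Ms4a7 from 83.1 ± 5.64 to 51.4 ± 10.8 CPM (adjusted p = 0.00414), while Pf4 was at 5.29 ± 1.37 and 7.01 ± 3.50 CPM (log2 fold change 0.41, adjusted p = 0.476). The defining markers Cd163, Lyve1 and Cbr2 were at or near the level of 3 counts, with means of at most 1.33 CPM in either group.

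Cd68 (chr11:69664213-69666153, minus strand), a glycoprotein of late endosomes and lysosomes in phagocytes, was the most abundant member. It was at 550.4, 619.7 and 634 CPM in GSK-J4 and at 500.3, 489 and 577 CPM with LPS + GSK-J4. The LPS + GSK-J4 libraries were lower in the mean, but replicate 3 reached into the GSK-J4 range. The log2 fold change was -0.20 (SE 0.11, adjusted p = 0.2097). Of its relatives in the LAMP family, Lamp1 fell from 1523 ± 72.6 to 1062 ± 30.9 CPM (log2 fold change -0.52, adjusted p = 0.00101), and Lamp2 had a log2 fold change of -0.34 (adjusted p = 0.0947). Without GSK-J4 replicate 2 or LPS + GSK-J4 replicate 2 the adjusted p of Lamp1 was 0.0117 and 0.0123. Lamp3 and Lamp5 had almost no counts and were not tested.

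Levels of different genes were compared per kilobase of the exons of their protein-coding transcripts in the GENCODE basic set. Per length in GSK-J4, Cd68 came first at 478 ± 35.5 CPM per kb, followed by Fcer1g (188 ± 16.6), Fcgr3 (154 ± 9.95), Cd36 (136 ± 24.8), Marco (79.8 ± 25.8) and Fcgr2b (37.1 ± 2.13). The scarce members were Mrc1 (10.4 ± 1.40), Msr1 (10.2 ± 0.421), Fcgr1 (9.14 ± 0.297) and Fcgr4 (3.74 ± 0.297). The libraries of Fcgr3 and Cd36 overlapped, as did those of Mrc1 and Msr1, and the other neighbours in the order did not. In LPS + GSK-J4 the first place was again that of Cd68 (415 ± 38.2 CPM per kb) and the last that of Fcgr4 (3.45 ± 0.593), while Fcer1g, Cd36 and Fcgr3 overlapped as neighbours, and so did Msr1, Fcgr1 and Mrc1. The per-length level of Fcgr3 was above that of Fcgr2b in every library. These levels rest on the annotated transcript lengths, which may differ from the transcripts that PM use.

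The promoters of the members that fell are printed because a change in transcript level is often looked for there. The windows are the 250 bases before the RefSeq start site (GRCm38.p6, the mm10 assembly), 5′ to 3′ on the strand of the gene, and capitals mark GAGGAA or its reverse complement, the core that the myeloid factor PU.1 binds. Marco is shown for chr1:120505025-120505274 and the upstream one of both Fcgr3 starts for chr1:171059404-171059653, each on the minus strand.
Marco: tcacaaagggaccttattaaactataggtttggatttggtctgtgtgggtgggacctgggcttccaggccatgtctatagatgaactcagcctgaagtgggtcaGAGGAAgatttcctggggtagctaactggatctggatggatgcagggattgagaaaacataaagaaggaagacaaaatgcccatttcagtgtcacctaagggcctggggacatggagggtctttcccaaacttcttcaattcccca
Fcgr3: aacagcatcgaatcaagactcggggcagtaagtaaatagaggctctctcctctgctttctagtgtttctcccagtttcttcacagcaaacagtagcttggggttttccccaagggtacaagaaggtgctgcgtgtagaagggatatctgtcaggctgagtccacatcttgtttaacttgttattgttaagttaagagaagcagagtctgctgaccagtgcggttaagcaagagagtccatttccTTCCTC

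Of 10 member windows in the RefSeq table, which stand for 9 genes and include both starts of Fcgr3, 7 held GAGGAA on either strand, those of 6 genes, Cd68, Fcgr1, Fcgr3, Fcgr4, Marco and Mrc1. The share over all 32851 promoter windows of this length was 23.3%. Mrc1 held 3 copies, and the 2 windows of Fcgr3 overlap and hold the same copy. Msr1 had no window. The windows of Fcgr2b, Fcgr3 and Cd36 lie inside the GENCODE spans of their genes, downstream of the first annotated start. The window of Fcgr2b also covers annotated exon bases, more than any other member window. Those of Mrc1, Fcer1g, Fcgr4 and the downstream start of Fcgr3 cover at most 22 each. The interferon-stimulated response element was found in Fcgr4 (2.98% of all windows), the gamma-activated site TTCNNNGAA in Fcgr1 (7.02%) and the AP-1 site TGANTCA in Cd68, with 2 copies (6.75%), each searched on both strands and without regard to overlap with the others. Genes with and without a GAGGAA match were found both among those that fell or were lower and among those that were not called. These matches describe letters in the windows and were not tested against binding. Spi1, which encodes PU.1, was at 167 ± 22.3 CPM in GSK-J4 and 144 ± 12.9 CPM with LPS + GSK-J4 (adjusted p = 0.285).

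Markers of the cells in the culture moved between the groups as well. The 8 microglia markers were all detected, and their summed level was 2631 to 2725 CPM in GSK-J4 and 2058 to 2120 CPM with LPS + GSK-J4. Cx3cr1 and Csf1r fell (log2 fold changes -0.48 and -0.46, adjusted p = 0.00354 and 0.00450) and the other 6 were not called, while Tmem119 and P2ry12, which distinguish resting microglia, were low, at 5.01 ± 2.01 and 13.2 ± 1.88 CPM in GSK-J4. The summed level of the 7 astrocyte markers was 53.6 to 59.4 CPM in GSK-J4 and 129 to 158 CPM with LPS + GSK-J4, and 3 of them rose. That of the 8 oligodendrocyte lineage markers was 182 to 212 and 352 to 402 CPM, with 4 that rose, and that of the 5 neuronal markers 14.8 to 19.1 and 32.4 to 40.6 CPM, with 2 tested, both of which rose. The mesenchymal markers (48.5 to 127 and 85.9 to 255 CPM) overlapped between the groups, and the 6 border macrophage markers, nearly all from F13a1 and Ms4a7, were at 291 to 363 and 167 to 207 CPM. Of the endothelial markers, Cldn5 was at 0 in every library, 1 of the 2 tested rose, and the sum was 13.9 to 21.2 and 25.0 to 62.4 CPM. Monocyte and granulocyte markers summed to at most 5.37 CPM, with S100a9 at 0, and lymphocyte markers to at most 0.413 CPM, with Ms4a1 and Nkg7 at 0. In bulk libraries, fewer cells of a type and less RNA of a gene in each cell cannot be told apart, and the part of these markers in the differences of the receptor genes was not tested.

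**Figure D3:**
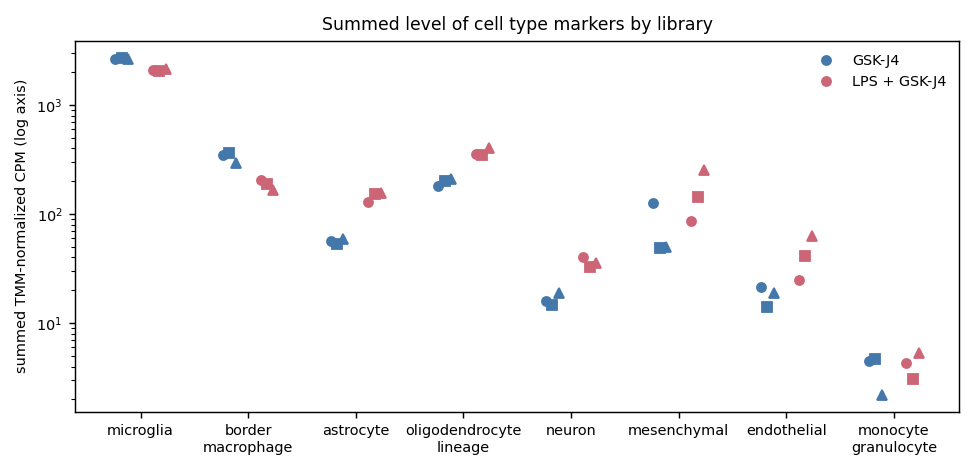
Summed TMM-normalized CPM of the cell type marker lists (log axis, lymphocyte markers left out because some libraries had none), with 1 point per library, colour for the group and circle, square and triangle for replicates 1, 2 and 3. Microglia markers lie at 2631 to 2725 CPM in GSK-J4 and 2058 to 2120 CPM with LPS + GSK-J4, and astrocyte, oligodendrocyte lineage and neuronal markers are higher with LPS + GSK-J4.

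Members were therefore also fitted with the libraries scaled to the summed counts of the 8 microglia markers, an alternative chosen after the data were seen. This scale holds the summed marker level equal in all libraries. With TMM each of the 8 had a negative log2 fold change, from -0.95 (Tmem119) to -0.21 (Itgam). Whether marker RNA per cell was the same in both groups was not tested. The scaling moved the median log2 fold change of all genes to 0.35, so each gene shifted up by about that amount. The genes that rose and fell by the adjusted p numbered 2149 and 217 in place of 853 and 553. On this scale Marco had a log2 fold change of -0.57 (adjusted p = 0.0339) and Fcgr3 of -0.17 (adjusted p = 0.256), and neither was called. Msr1 rose, by 0.72 on the log2 scale (adjusted p = 0.00741). Mrc1 was at -0.21 and Fcer1g at -0.06, and the sign turned for Fcgr2b (0.05), Fcgr1 (0.10), Fcgr4 (0.25), Cd36 (0.18) and Cd68 (0.15). The median of the members was 0.07, below that of all genes on the same scale as it was with TMM. The order of the members is the same on both scales, with Marco lowest and Msr1 highest, and the scaling decides on which side of 0 most of them lie.

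**Figure D4:**
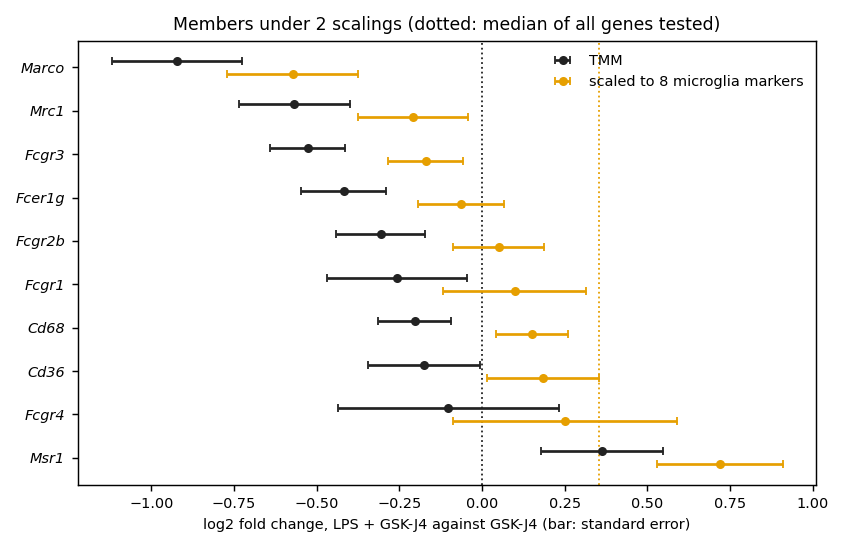
Log2 fold change of each member (LPS + GSK-J4 against GSK-J4, bars are standard errors) with TMM in black and scaled to the 8 microglia markers in orange, and the median of all genes tested as a dotted line for each. With TMM 9 of 10 genes lie below 0 and with the microglia scale 4 of 10, while Marco stays lowest and Msr1 highest.

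Other Fc receptor genes were few in these cells. Of 12 listed, 4 passed the filter on low counts and none was called by edgeR. At an adjusted p of at most 0.05, 2 were lower and 1 was higher, where 9.91% and 13.7% of all genes tested were. Fcrls, an Fc receptor-like gene typical of mouse microglia, was at 209 ± 7.46 and 154 ± 10.8 CPM (log2 fold change -0.44, adjusted p = 0.01003, just above the threshold). Fcgrt, the neonatal Fc receptor that recycles IgG, was at 38.9 ± 2.78 and 25.4 ± 1.90 CPM (adjusted p = 0.0120). Trim21, a cytosolic receptor for antibody, was at 2.72 ± 0.594 and 7.16 ± 2.32 CPM (adjusted p = 0.0141). Fcrlb was at 4.66 ± 1.18 and 7.92 ± 1.37 CPM (adjusted p = 0.0865). DESeq2 called 1 of the 4, and on the microglia scale Trim21 and Fcrlb rose (adjusted p = 0.00181 and 0.00989).

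Among 25 other scavenger receptor and C-type lectin genes, 17 were tested, 2 rose and 2 fell, with a median log2 fold change of 0.07. Over all genes tested, 8.42% rose and 5.46% fell. Olr1, the oxidized LDL receptor LOX-1, rose from 4.75 ± 1.15 to 33.8 ± 6.48 CPM (log2 fold change 2.83, SE 0.25, adjusted p = 4.35e-07). Clec4e, the lectin Mincle, rose from 105 ± 49.9 to 398 ± 70.1 CPM (log2 fold change 1.91, SE 0.34, adjusted p = 0.00805). Both passed the study's fold threshold, in contrast to every member. The scavenger receptor Colec12 fell from 725 ± 44.2 to 371 ± 42.4 CPM (log2 fold change -0.97, adjusted p = 1.26e-05), and Clec4n, the lectin Dectin-2, from 88.4 ± 17.6 to 48.6 ± 9.63 CPM (log2 fold change -0.87, adjusted p = 0.00159). The call of Clec4e was lost without GSK-J4 replicate 2 or any 1 of the LPS + GSK-J4 libraries (adjusted p from 0.0158 to 0.0687), with unstranded counts (0.0106) and without a filter on low counts (0.0449), and that of Clec4n without GSK-J4 replicate 1 or LPS + GSK-J4 replicate 2 (0.0124 and 0.0199). On the microglia scale Olr1, Clec4e and Colec12 kept their calls, and Clec4n did not (adjusted p = 0.0301).

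Of 36 genes that carry Fc receptor signals, 35 were tested, 3 rose and 5 fell, where 8.42% and 5.46% of all genes tested did. The median log2 fold change of the list was -0.07. The kinase Src rose from 30.1 ± 3.59 to 72.6 ± 15.8 CPM (log2 fold change 1.27, adjusted p = 5.91e-05). The adaptor Lcp2 (SLP-76) rose from 45.5 ± 6.5002 to 92.4 ± 3.33 CPM (log2 fold change 1.01, adjusted p = 7.12e-05), and Pik3r1, a regulatory subunit of PI3-kinase, had a log2 fold change of 0.68 (adjusted p = 0.00781). The guanine nucleotide exchange factor Vav1 fell from 218 ± 14.4 to 123 ± 6.26 CPM (log2 fold change -0.82, adjusted p = 8.33e-05), and the adaptors Grb2 and Gab2 fell by 0.75 and 0.70 on the log2 scale (adjusted p = 0.000558 and 0.000585). Inpp5d, the inositol phosphatase SHIP1 that acts below Fcgr2b, fell from 352 ± 21.5 to 219 ± 19.8 CPM (log2 fold change -0.68, adjusted p = 0.000395). The 5th gene that fell, named here after its value was seen because it completes the count, was the adaptor Blnk (log2 fold change -0.64, adjusted p = 0.00597). Syk, the kinase that the gamma chain recruits, was at 173 ± 12.98 and 132 ± 21.0 CPM (adjusted p = 0.0459), and Tyrobp, the related chain DAP12, at 315 ± 25.3 and 246 ± 17.3 CPM (adjusted p = 0.0321). On the microglia scale 4 genes of the list rose and 1, Vav1, fell, where 2149 and 217 of all 10133 genes tested did. The calls of Grb2, Gab2, Inpp5d and Blnk were lost on that scale. The calls of Pik3r1 and Blnk were also lost without any 1 of 5 libraries, LPS + GSK-J4 replicate 3 being the exception, at adjusted p from 0.0116 to 0.0538, and that of Pik3r1 with DESeq2 (adjusted p = 0.0273).

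Of 16 other phagocytic receptor genes, 15 were tested, 2 rose and 2 fell, where 8.42% and 5.46% of all genes tested did. The median log2 fold change of the list was -0.21. The integrin Itgax rose from 32.7 ± 3.30 to 57.2 ± 6.46 CPM (log2 fold change 0.81, adjusted p = 0.00107). Adgrb1, a receptor for apoptotic cells, rose from 1.30 ± 0.523 to 5.52 ± 0.288 CPM, a level close to 3 counts in GSK-J4. The log2 fold change of Adgrb1 was 2.04 (SE 0.42, adjusted p = 0.00207), past the study's fold threshold. The inhibitory receptors Cd300a and Sirpa fell, by 0.97 and 0.44 on the log2 scale (adjusted p = 2.95e-05 and 0.00444). Of these, Sirpa was not called on the microglia scale (adjusted p = 0.526) or without any 1 of the libraries other than LPS + GSK-J4 replicate 3 (0.0105 to 0.0461). Itgax was not called without GSK-J4 replicate 2 (0.0114), nor Adgrb1 without GSK-J4 replicate 2 or 3 or LPS + GSK-J4 replicate 2 (0.0103 to 0.0191) or with DESeq2 (0.0174), and Adgrb1 was not tested where every sample had to hold at least 10 counts.

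Of 13 transcription factors known to act on genes of this kind, 12 were tested, none rose and 3 fell, with a median log2 fold change of -0.29. Over all genes tested, 8.42% rose and 5.46% fell, and with 12 genes a count of 3 is small. Irf4 fell from 13.8 ± 2.10 to 3.53 ± 1.11 CPM (log2 fold change -1.95, SE 0.30, adjusted p = 0.000203). Cebpa, a factor of myeloid differentiation, fell from 596 ± 143 to 189.9 ± 29.8 CPM (log2 fold change -1.65, SE 0.16, adjusted p = 1.50e-06), and both passed the study's fold threshold. Rxra, the partner of nuclear receptors that act on Cd36, fell from 246 ± 41.1 to 117 ± 6.80 CPM (log2 fold change -1.08, adjusted p = 2.34e-05). These 3 calls held on the microglia scale and without each library in turn, and Irf4 was not tested where every sample had to hold at least 10 counts. Pparg, which acts with Rxra, was too low to be tested, at means of 1.68 and 2.63 CPM.

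**Figure D5:**
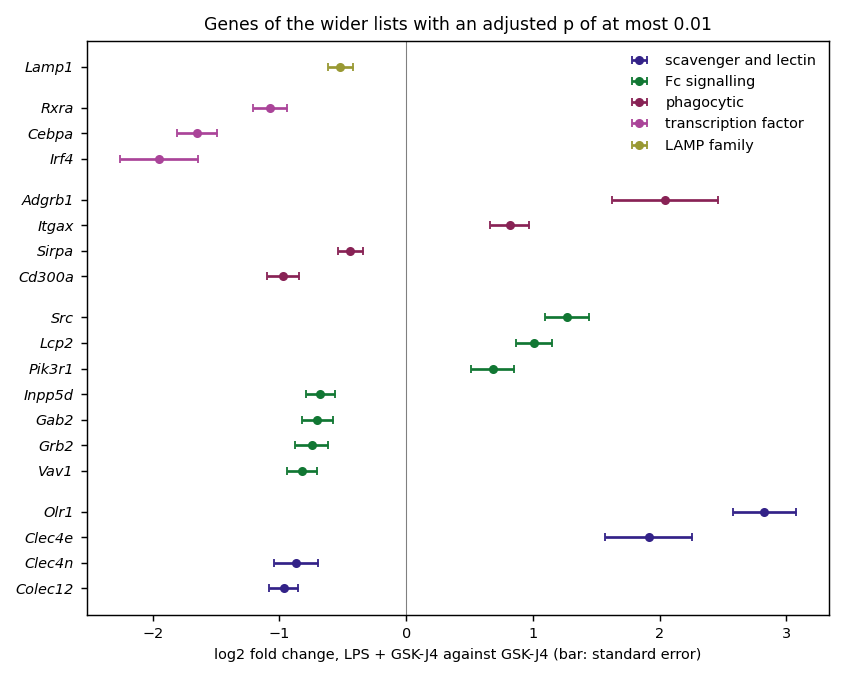
Log2 fold change (LPS + GSK-J4 against GSK-J4, TMM, bars are standard errors) of the named genes of the wider lists that passed an adjusted p of 0.01, coloured by list. Olr1 lies highest at 2.83 and Irf4 lowest at -1.95, and Colec12, Clec4n, Cd300a, Vav1, Grb2, Gab2, Inpp5d, Sirpa and Lamp1 lie between -0.97 and -0.44.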

How the data were processed

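RNA-seq libraries of PM were analysed, 3 per group. Per the labels, CASAVA 1.8.2, Trimmomatic 0.33, STAR 2.5.1 and the mm10 build were used, and the authors deposited raw counts of fragments per gene, without normalization, in unstranded, same-strand and reverse-strand columns. The reverse-strand counts were used, as the directional kit calls for. STAR leaves out fragments that map to several places or overlap several genes. The features Mir6546 and Mir511 lie within Fcgr3 and Mrc1 on the same strand. The annotation used for counting is not given in the sources used here, and positions and lengths are from GENCODE M21.

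The fits used edgeR 4.0.16 under R 4.3.3, with TMM factors, filterByExpr (minimum count 10, minimum total 15) and the robust quasi-likelihood test without covariates, adjusted by Benjamini-Hochberg over 10133 genes. The standard error is the log2 fold change divided by the square root of F. A level of 3 counts was 0.673 to 1.24 CPM and covers counting error only. On simulated libraries edgeR called 60 of 100 genes changed by 1 on the log2 scale, 94 of 100 changed by 2 and 1 of 9933 unchanged genes. Every member changed by less than 1, a size that was not simulated, so the power for the members was not measured. All members are named, and from each wider list up to 4 genes per direction with the largest change past the threshold. Blnk, Syk, Tyrobp, Spi1, Pparg, the other LAMP genes and the other Fc receptors fall outside that rule and were named with their values seen. Members and lists were chosen with earlier results of these data known. The alternatives were unstranded counts, DESeq2 1.42.0 and its size factors, other filters, an adjusted p of at most 0.05, the replicate block, removal of Rn45s, Mir6236 and Lars2, omission of each library, and, chosen after seeing the data, scaling to microglia markers. One marker gene is not reported here.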

Additional observations from a re-analysis of the deposited data

How the results depend on the processing

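Counts are of genes past the adjusted p of 0.01 unless another threshold is named. The 2 member calls became 4 without a filter on low counts and at an adjusted p of 0.05, and 1, that of Msr1, on the microglia scale. Without each library in turn they numbered 0 to 3, with 0 without GSK-J4 replicate 1 or LPS + GSK-J4 replicate 1 or 2 and 1 without GSK-J4 replicate 2. These fits hold fewer samples. With the replicate block the members called were 3, Fcgr3, Fcer1g and Mrc1, and Marco was not (adjusted p = 0.183). No label states a pairing. Deviations from the group means correlated at -0.010, 0.12 and 0.30 in the 3 same-numbered pairs and at -0.29 to 0.24 in the others. Not every library correlated best with its own number, and 3 libraries per group cannot settle whether the numbers mark pairs. Over all genes tested, 1259 rose and 1016 fell with the block, in place of 853 and 553. The 0 calls among other Fc receptor genes became 3 with unstranded counts, without a filter, with the replicate block or at an adjusted p of 0.05, 2 on the microglia scale and 1 with DESeq2 or its size factors (0 to 1 without each library). The 4 scavenger and lectin calls became 7 with the block (2 to 5 without each library), the 4 phagocytic calls 7 with the block or at 0.05 (1 to 6), the 8 signalling calls 5 on the microglia scale (6 to 10), and the 1 LAMP call 2 with the block and 0 on the microglia scale (0 to 1). The 3 transcription factor calls stayed within 1.5 times. No member passed the study's fold threshold under any alternative. All genes past both thresholds numbered 381, 232 with at least 10 counts in every sample and 717 on the microglia scale (351 to 470 without each library). The difference in log2 ratio of Fcgr3 to Fcgr2b was -0.33 to -0.10 without each library. The sign of Fcgr4 turned without LPS + GSK-J4 replicate 1 (range -0.21 to 0.027 without each library) and that of Cd36 without LPS + GSK-J4 replicate 3 (-0.34 to 0.012), and on the microglia scale Fcgr1 was at 0.10, Fcgr2b at 0.050, Fcgr4 at 0.25, Cd36 at 0.18 and Cd68 at 0.15. With at least 10 counts in every sample Fcgr4 was not tested. Of the alternative values of the members' fold changes, 122 kept the direction and the side of the threshold, 9 newly passed it, 11 no longer passed it and 7 changed sign. The cause of these moves was not tested. Depth limits Fcgr4 most, with 9 to 20 counts per library.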
